A study of Mus musculus with 2 samples.

Results

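The genes described here are 10 genes for mitochondrial fatty acid oxidation enzymes, of the 32285 genes listed in both matrices. They were chosen by symbol and followed across cell classes gated on marker genes, and the set was built around *Acadl*, which was selected because its ratio of preputial gland (PG) to skin in sebocytes was among the lowest of all genes. That contrast therefore describes the choice and supports nothing by itself. Both tissues came from wild type male C57BL/6 mice aged 52 weeks: back skin, with its small sebaceous glands, and the PG, a large modified sebaceous gland of rodents. Cells of 3 mice were pooled into 1 library per tissue and measured by droplet-based 3′ RNA sequencing, so there is no replicate, no test can be made, and tissue and library cannot be told apart. Levels are given as counts of unique molecular identifiers (UMIs) scaled to the total UMIs of a cell class, as counts per 1000000 (CPM). All 95% intervals are exact and cover counting error only, and a difference in CPM cannot separate a change of a transcript from a change of the other RNA of the same cells.

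Mitochondrial beta-oxidation shortens fatty acids by repeated cycles. Carnitine palmitoyltransferases bring long acyl chains into the matrix, acyl-CoA dehydrogenases of different chain length preference take the first step of each cycle, the trifunctional protein and shorter-chain enzymes complete it, and the electrons pass through the electron transfer flavoprotein and its dehydrogenase to the respiratory chain. Sebocytes are best known for the opposite process: they make and store fatty acids, wax esters and other lipids before they burst to release sebum.

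The libraries held 37675226 UMIs (skin) and 26288071 UMIs (PG), and 8899 and 4699 cells were kept. No barcode was shared between the kept cells of both libraries. The deposited barcode lists differ in length, with 6794880 and 737280 entries, although the labels name the same kit for both. Such lists differ in length between versions of the kit's chemistry, and a difference in chemistry between the libraries could not be told apart from one between the tissues. The nuclear RNA *Malat1* stood at 28214 CPM in basal keratinocyte-like cells of skin and at 1476 CPM in those of PG, so the libraries stand apart in more than their sebocytes. The part of this gap in the results below was not tested.

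Sebocyte-like cells, called sSEB in skin and pSEB in PG, numbered 32 and 781 and held 147271 and 4279182 UMIs, with a median of 4008 and 5181 UMIs per cell. All 13 sebocyte markers had UMIs in sSEB. *Scd1*, a desaturase of lipid synthesis, reached 5208 CPM against 43.1 CPM in basal keratinocyte-like cells of skin. In pSEB 12 of the 13 markers had UMIs, *Scd1* was at 3348 CPM, and the wax synthase gene *Awat1* had none. In the median sSEB, basal keratinocyte markers took 11.0 and upper follicle markers 10.7 of 10000 UMIs, against 65.2 for sebocyte markers. Of the cells, 3 sSEB and 19 pSEB lay within 1.5-fold of the cut of the gate, and 8 and 128 also passed the gate of another class. The adipocyte markers, a possible source of fatty acid genes in skin, had 2 UMIs in sSEB, both of *Car3*, and *Adipoq* had 0. Unsupervised clustering placed 14 of the 32 sSEB in a cluster of 249 cells that no marker list named. The others fell in clusters named for other classes. A basal keratinocyte cluster held 8, a fibroblast cluster 4 and an inner root sheath cluster 4. A further basal keratinocyte cluster and a further fibroblast cluster held 1 each. The skin population thus rests on the gate.

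The carnitine palmitoyltransferase genes come first in the pathway. *Cpt1a* (ENSMUSG00000024900, chr19:3322326-3385735, mm10), whose product is the rate-limiting enzyme of the carnitine shuttle, had 27.2 CPM in sSEB (4 UMIs, interval 7.40 to 69.5) and 44.2 CPM in pSEB (189 UMIs, 38.1 to 50.9). *Cpt2* (chr4:107903982-107923589), which transfers the chain back to coenzyme A inside the mitochondrion, had 20.4 CPM (3 UMIs) and 38.1 CPM (163 UMIs). Both intervals of the log2 ratio included 0, with -0.68 to 2.59 for *Cpt1a* and -0.67 to 3.20 for *Cpt2*, so a difference of either gene was not detectable at the depth of 32 skin cells.

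The acyl-CoA dehydrogenase genes, with *Acadl* around which the set was built, did not move together. *Acadl* (ENSMUSG00000026003, chr1:66830839-66863309), the long-chain acyl-CoA dehydrogenase, had 47 UMIs in sSEB, a level of 319 CPM (234 to 424). In pSEB it had 2 UMIs, a level of 0.467 CPM, where the level of sSEB would have given 1366 UMIs. The level in pSEB was thus 683-fold lower, a log2 ratio of -9.42 (-12.5 to -7.48), which had rank 11 from the lowest of 3177 genes. These 3177 genes are those with at least 50 CPM in either population.

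*Acadm* (chr3:153922353-153944643), the medium-chain enzyme, was the other member with a lower level in PG beyond counting error. It had 306 CPM in sSEB (45 UMIs) and 33.7 CPM in pSEB (144 UMIs), a log2 ratio of -3.18 (-3.67 to -2.67). *Acads* (chr5:115110299-115119346), the short-chain enzyme, went the other way, with 20.4 CPM from only 3 UMIs in sSEB and 72.7 CPM from 311 UMIs in pSEB (log2 ratio 1.84, 0.27 to 4.12). *Acadvl* (chr11:70010183-70015428), the very-long-chain enzyme bound to the inner membrane, had similar values of 122 and 162 CPM, with a log2 ratio of 0.40 (-0.27 to 1.17). So the long-chain and medium-chain genes were lower in pSEB, the short-chain gene was higher, and the very-long-chain gene did not differ beyond counting error.

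The bases directly upstream of *Acadl* and *Acadm* are shown because these were the members with lower levels in PG. Each sequence is 250 bases long, taken from RefSeq on GRCm38.p6 (the assembly of mm10) on the minus strand, from chr1:66863310-66863559 for *Acadl* and chr3:153944644-153944893 for *Acadm*. Capitals mark AGGTCA, a half-site bound by nuclear receptors such as the PPAR and estrogen-related receptors, and GGGCGG, a GC box, on either strand. The letters of these motifs cannot overlap each other.
Acadl: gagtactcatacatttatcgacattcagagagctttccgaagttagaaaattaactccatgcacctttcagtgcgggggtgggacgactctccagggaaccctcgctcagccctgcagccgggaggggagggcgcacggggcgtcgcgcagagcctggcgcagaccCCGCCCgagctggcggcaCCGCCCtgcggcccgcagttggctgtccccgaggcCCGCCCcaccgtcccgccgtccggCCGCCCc
Acadm: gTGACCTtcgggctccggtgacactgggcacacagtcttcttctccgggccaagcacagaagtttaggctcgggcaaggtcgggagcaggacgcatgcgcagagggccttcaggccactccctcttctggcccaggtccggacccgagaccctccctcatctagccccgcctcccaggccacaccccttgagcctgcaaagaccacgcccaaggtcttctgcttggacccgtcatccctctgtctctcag
AGGTCA was found in 14.0% and GGGCGG in 32.7% of 32851 upstream windows of the same length. The *Acadl* window held 4 matches of GGGCGG and none of AGGTCA, and the *Acadm* window held 1 match of AGGTCA, at its far 5′ end, and none of GGGCGG. Of the 9 members with a sequence, 3 held AGGTCA (*Acadm*, *Acadvl* and *Cpt1a*) and 6 held GGGCGG. The 6 include *Hadha* and *Hadhb*, whose windows overlap. G and C made up 49.6% (*Acadvl*) to 68.0% (*Acadl*) of the member windows. This share was not taken for all windows, so the counts are a description. No upstream sequence of *Decr1* was used here. A match describes the letters and is not evidence of binding.

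The trifunctional protein takes the next steps for long chains. *Hadha* (chr5:30119423-30154980), its alpha subunit, had 346 CPM in sSEB (51 UMIs) and 317 CPM in pSEB (1356 UMIs). The log2 ratio was -0.13 (-0.53 to 0.30). *Hadhb* (chr5:30155253-30184593), the beta subunit that carries the thiolase, had 88.3 CPM (13 UMIs) and 216 CPM (925 UMIs), a log2 ratio of 1.29 (0.51 to 2.21). Both subunits form the same complex. The *Hadha* to *Hadhb* ratio of UMIs was 3.92 in sSEB (2.10 to 7.86) and 1.47 in pSEB (1.35 to 1.60). In basal keratinocyte-like cells it was 1.83 (1.65 to 2.03) in skin and 1.44 (1.32 to 1.57) in PG, and in fibroblast-like cells 1.70 and 1.56. The sSEB value thus stood above that of skin basal cells, with intervals that did not overlap, and rested on 13 UMIs of *Hadhb*. Several other skin classes had intervals that overlapped that of sSEB, such as hair matrix-like cells with 2.57 (1.78 to 3.77).

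*Hadha* and *Hadhb* lie head to head. Their RefSeq starts are separated by 272 bases, and the 250 bases upstream of *Hadhb* (chr5:30155003-30155252, plus strand) are shown because both genes share them.
Hadhb: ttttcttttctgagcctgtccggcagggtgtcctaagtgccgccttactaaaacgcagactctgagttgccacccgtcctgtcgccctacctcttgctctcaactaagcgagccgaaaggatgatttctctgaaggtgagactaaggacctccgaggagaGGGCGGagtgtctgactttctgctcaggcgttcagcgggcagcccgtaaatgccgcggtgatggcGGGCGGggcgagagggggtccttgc
Capitals again mark the same motifs. The window held 2 matches of GGGCGG and none of AGGTCA. Over 15 class levels (10 classes of skin and 5 of PG with at least 50 cells) the log2 levels of *Hadha* and *Hadhb* had a Pearson r of 0.85, which describes levels that share libraries and is not a test.

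*Etfdh* (chr3:79603788-79628767), which passes electrons from the flavoprotein to ubiquinone, had 95.1 CPM in sSEB (14 UMIs) and 122 CPM in pSEB (522 UMIs), with a log2 ratio of 0.36 (-0.40 to 1.24). *Decr1* (chr4:15917240-15945377), the 2,4-dienoyl-CoA reductase needed for many unsaturated chains, had 156 CPM (23 UMIs) and 137 CPM (585 UMIs), with -0.19 (-0.79 to 0.48). Neither differed beyond counting error. Of the 8 members with at least 50 CPM in either population, 2 were at least 2-fold higher in pSEB (*Acads*, *Hadhb*) and 2 at least 2-fold lower (*Acadl*, *Acadm*). Among all 3177 genes these shares were 15.7% and 21.0%. The median of all genes was shifted by -0.18, and with the ratios centred on it *Hadha* moved to 0.05, while no member entered or left these counts. Since *Acadl* and *Acadm* reached 50 CPM only through skin and *Acads* only through PG, the counts are a description.

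**Figure D1:**
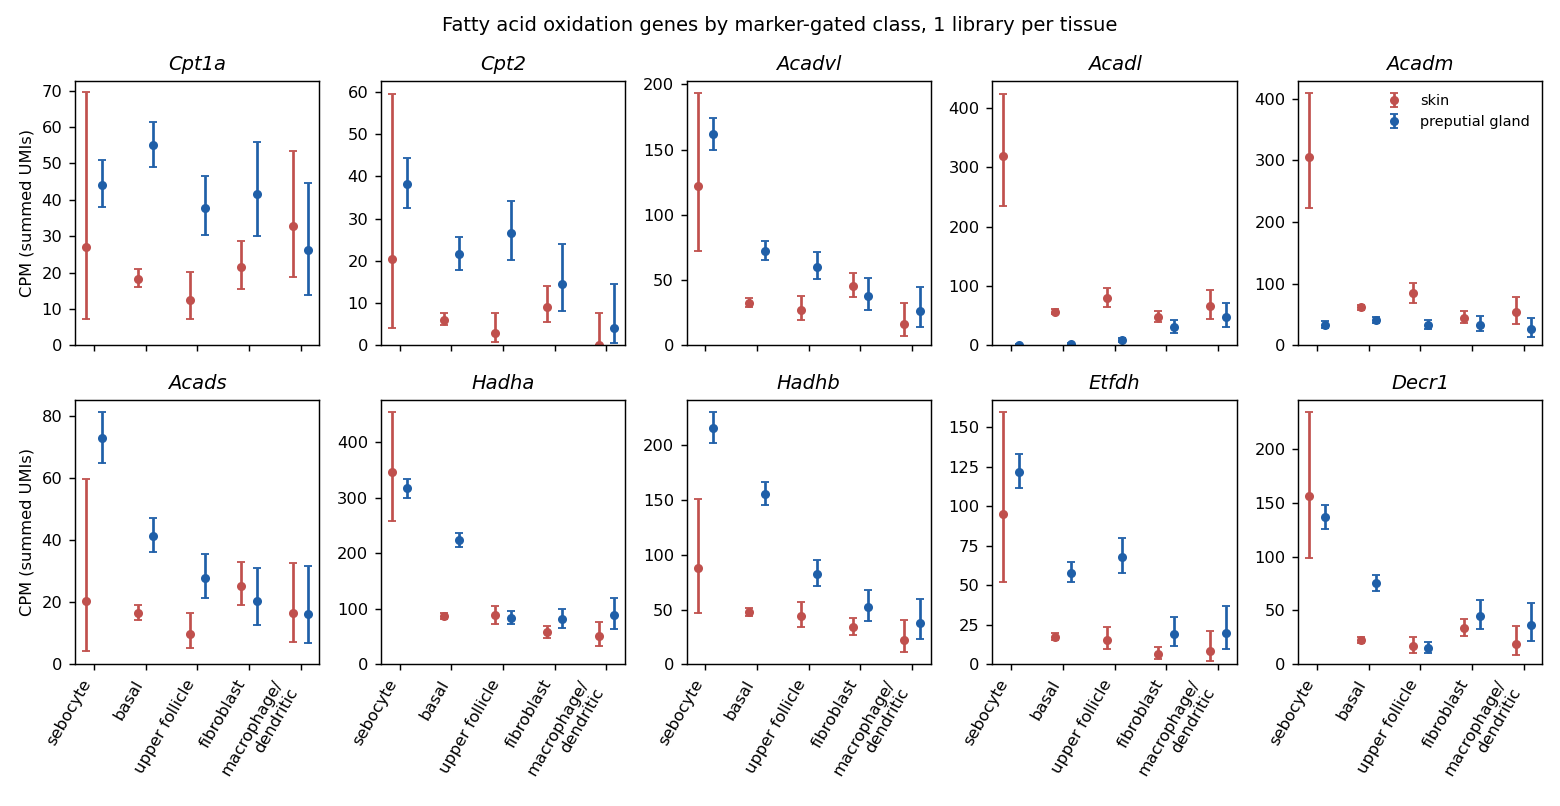
Level in CPM of the 10 genes in 5 marker-gated classes of skin (red) and preputial gland (blue), each point the summed UMIs of 1 library with its exact 95% Poisson interval (counting error only). Acadl and Acadm stand at 319 and 306 CPM in skin sebocyte-like cells and at 0.467 and 33.7 CPM in those of the gland, while the gland points of most other genes lie at or above those of skin in basal keratinocyte-like cells.

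The gene with 2 UMIs in pSEB was not absent from the PG library. *Acadl* had 48.2 CPM in macrophage and dendritic-like cells of PG (24 UMIs) and 30.9 CPM in fibroblast-like cells (32 UMIs). The same classes of skin had 65.9 and 47.7 CPM, and the log2 ratios of -0.45 (-1.28 to 0.36) and -0.62 (-1.25 to -0.04) were far from the ratio in sebocytes. Among fibroblast-like cells with at least 1000 genes and 2000 UMIs, of which PG had only 95, the ratio was -1.75. In the epithelium of PG the gene was low throughout, at 8.69 CPM in upper follicle-like cells (20 UMIs) and 3.16 CPM in basal keratinocyte-like cells (18 UMIs). The corresponding skin classes had 79.9 and 56.5 CPM, with log2 ratios of -3.20 (-3.97 to -2.50) and -4.16 (-4.93 to -3.49). Among the PG classes with at least 50 cells the order of *Acadl* was thus macrophage and dendritic-like, fibroblast-like, upper follicle-like, basal keratinocyte-like and sebocyte-like cells. The intervals of the first and second of these overlapped (30.9 to 71.8 and 21.2 to 43.7 CPM), while those of the basal keratinocyte-like and sebocyte-like cells did not (1.87 to 4.99 and 0.0566 to 1.69 CPM).

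Near-empty barcodes (10 to 100 UMIs), which sample free RNA, had 10.6 CPM of *Acadl* in PG, above its level in upper follicle-like cells, basal keratinocyte-like cells and pSEB. The part of free RNA in levels at or under that value was not tested, so the lower part of this order holds for counting error only. Near-empty barcodes of skin had 47.9 CPM of *Acadl* (42.1 to 54.3). This overlapped the interval of skin basal keratinocyte-like cells (52.28 to 60.95) but not that of upper follicle-like cells (65.5 to 96.4). The part of free RNA in the epithelial ratios was not tested. In PG fibroblast-like cells 7 sebocyte marker genes stood between 2.07% (the wax synthase gene *Awat2*) and 32.3% (*Plin2*, which coats lipid droplets) of their near-empty levels, and *Acadl*, at 30.9 CPM, was above its own. Thinned to 1000 UMIs per cell, 9 of 32 sSEB (28.1%, 13.7% to 46.7%) and 0 of 781 pSEB had an *Acadl* UMI, a count of 0 that allows up to 0.384% with a floor of 3 cells and 0.471% by the exact interval. Before thinning it was 19 and 2 cells. The thinned share was 3.32% in fibroblast-like cells of PG and 3.91% in those of skin, and 5.65% in basal keratinocyte-like cells of skin. *Hadha* had a UMI in 8 of 32 thinned sSEB and in 202 of 781 thinned pSEB (25.9%), so the cells without *Acadl* did not lack this member.

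In skin, *Acadl* was highest in sSEB, followed by skeletal muscle-like cells with 111 CPM (26 UMIs), and lowest in suprabasal keratinocyte-like cells with 43.4 CPM. All 11 skin classes, which are sSEB and 10 classes with at least 50 cells, lay above every epithelial class of PG. Several of them, such as fibroblast-like cells with 47.7 CPM, lay at or under the 47.9 CPM of near-empty barcodes of skin. sSEB had the highest level of 8 of the 10 members among the 11 skin classes. The exceptions were *Acads* and *Cpt1a*, which were highest in T cell-like cells, at 90.2 CPM from 8 UMIs and 33.8 CPM from 3 UMIs. The sSEB intervals of *Cpt2* (20.4 CPM from 3 UMIs), *Hadhb* (88.3 CPM from 13 UMIs) and *Acadvl* overlapped those of the next highest class. pSEB had the highest level of 7 of the 10 members among 5 PG classes, and the lowest of *Acadl*. The share of all genes that are highest in sSEB or pSEB was not taken, so both counts are a description. *Acadl* was also chosen by its sebocyte levels. *Acadm* and *Cpt1a* were highest in basal keratinocyte-like cells of PG, at 40.8 and 55.0 CPM, and *Acadm* stayed between 26.1 and 40.8 CPM in these 5 PG classes. Near-empty barcodes of PG had 32.2 CPM of *Acadm* (25.2 to 40.5), which overlapped the intervals of all 5 classes. These *Acadm* levels were thus not separated from the near-empty level, and the part of free RNA in them was not tested.

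Basal keratinocyte-like cells gave the most precise comparison between the tissues, with 11789274 UMIs in skin and 5704149 in PG. All members but *Acadl* and *Acadm* were higher in PG, by log2 ratios of 1.16 (*Acadvl*) to 1.82 (*Cpt2*). Near-empty barcodes of PG had 235 CPM of *Hadha*, 83.8 CPM of *Acadvl* and 29.1 CPM of *Cpt2*. The PG basal levels of 224, 72.6 and 21.6 CPM lay under these. In these PG cells the sebocyte marker genes set against near-empty barcodes above stood between 2.10% (*Soat1*) and 55.0% (*Plin2*) of their near-empty levels. The part of free RNA in the member levels was not tested. *Hadhb*, *Etfdh*, *Decr1* and *Acads* (41.4 against 35.3 CPM) had intervals that overlapped those of their near-empty levels. *Cpt1a* (55.0 against 34.0 CPM) was above its own. The PG class also carried more sebocyte RNA. Sebocyte markers took 14.2 of 10000 UMIs in its median cell and 0 in that of skin, basal markers took 52.3 against 208, and 208 of its 1945 cells lay within 1.5-fold of the cut. *Mgst1* had 1129 CPM in PG and 78.9 CPM in skin, and *Plin2* 259 and 21.7 CPM. The rise of the members was smaller, to a degree that varied by member, in cells low in these markers (396 in PG and 3646 in skin). Such cells had at most 5 UMIs of sebocyte markers per 10000, a limit chosen after seeing the data. There the log2 ratios of the 8 members other than *Acadl* and *Acadm* were 0.25 (*Acadvl*) to 1.05 (*Cpt2*), while *Acadm* was at -1.38 and *Acadl* at -3.94. In all basal keratinocyte-like cells *Hadha* had 87.2 CPM in skin and 224 CPM in PG (1.36, 1.24 to 1.48), and *Etfdh* 17.5 and 57.9 CPM (1.73, 1.47 to 1.99). *Acadm* was lower, at 61.6 and 40.8 CPM (-0.59, -0.81 to -0.38). Of the 8 members with at least 50 CPM in either tissue, 6 were at least 2-fold higher and 1 lower in PG, against 17.2% and 16.3% of 3128 genes. In the cells low in sebocyte markers 1 of these 8 was at least 2-fold higher (*Etfdh*, 1.04) and 2 were lower (*Acadl*, *Acadm*). The share of all genes was not taken in those cells, so these counts are a description. *Cpt1a*, *Etfdh*, *Acadvl*, *Hadhb* and *Decr1* reached 50 CPM only through PG. General mitochondrial genes moved with them: all 14 of a list of respiratory chain, citric acid cycle and import genes were higher in PG, by a median of 0.89, and 6 of 13 that reached 50 CPM were at least 2-fold higher. Whether this part of the difference belongs to mitochondria as a whole was not tested. In fibroblast-like cells 0 of 2 members that reached 50 CPM were past 2-fold in either direction, against 9.94% higher and 8.25% lower of 3260 genes. The values were 81.2 and 57.7 CPM for *Hadha* (log2 ratio 0.49) and 52.2 and 33.8 CPM for *Hadhb* (0.62). Under 50 CPM, *Etfdh* had 19.3 CPM in PG and 6.67 CPM in skin (1.53, 0.48 to 2.63), and *Cpt1a* 41.6 and 21.4 CPM (0.95, 0.32 to 1.59).

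**Figure D2:**
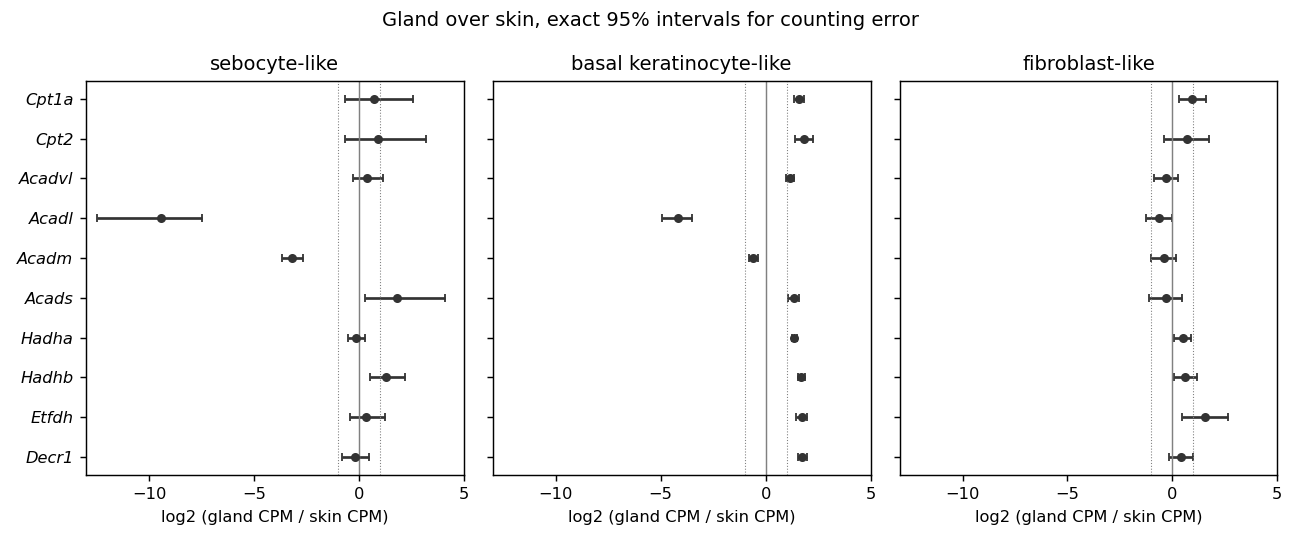
Log2 ratio of gland CPM to skin CPM of the 10 genes in sebocyte-like, basal keratinocyte-like and fibroblast-like cells, with exact 95% intervals for counting error. Dotted lines mark 2-fold. Acadl lies at -9.42, -4.16 and -0.62, while the other genes except Acadm lie between 1.16 and 1.82 in basal keratinocyte-like cells, a range of 0.25 to 1.05 in the basal cells low in sebocyte markers, which are not plotted.

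The 4 acyl-CoA dehydrogenase genes can be described by their shares of the UMIs of all 4, which do not depend on the total of a class. A 3′ UMI stands for 1 molecule whatever the length of the transcript. In sSEB (113 UMIs) *Acadl* took 41.6% (32.4% to 51.2%), *Acadm* 39.8%, *Acadvl* 15.9% and *Acads* 2.65%. In pSEB (1149 UMIs) *Acadvl* took 60.2% (57.3% to 63.1%), *Acads* 27.1%, *Acadm* 12.5% and *Acadl* 0.174%. The skin population was thus led by the long-chain and medium-chain genes and the PG population by the very-long-chain and short-chain genes. In skin, *Acadl* and *Acadm* also led in upper follicle-like cells (39.7% and 41.9%) and near-empty barcodes (38.9% and 29.6%). In PG, *Acadvl* led in upper follicle-like cells (46.3%) and near-empty barcodes (51.8%). These leads were thus not particular to sebocyte-like cells, and the part of free RNA in them was not tested. Shares are parts of a whole, so the low *Acadl*, the gene chosen by this contrast, by itself raises the other shares in pSEB. The level of *Acadvl* was 122 CPM in sSEB and 162 CPM in pSEB, a log2 ratio of 0.40 (-0.27 to 1.17). Fibroblast-like cells had nearly the same makeup in both tissues, with *Acadl* at 29.1% of 344 UMIs in skin and 25.2% of 127 UMIs in PG, and *Acadm* at 27.6% in both. Basal keratinocyte-like cells of PG were between, with 45.9% *Acadvl*, 26.2% *Acads* and 25.9% *Acadm*, against 19.5%, 9.85% and 36.9% in skin, and *Acadl* had 18 of their 901 UMIs, against 33.8% in skin.

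**Figure D3:**
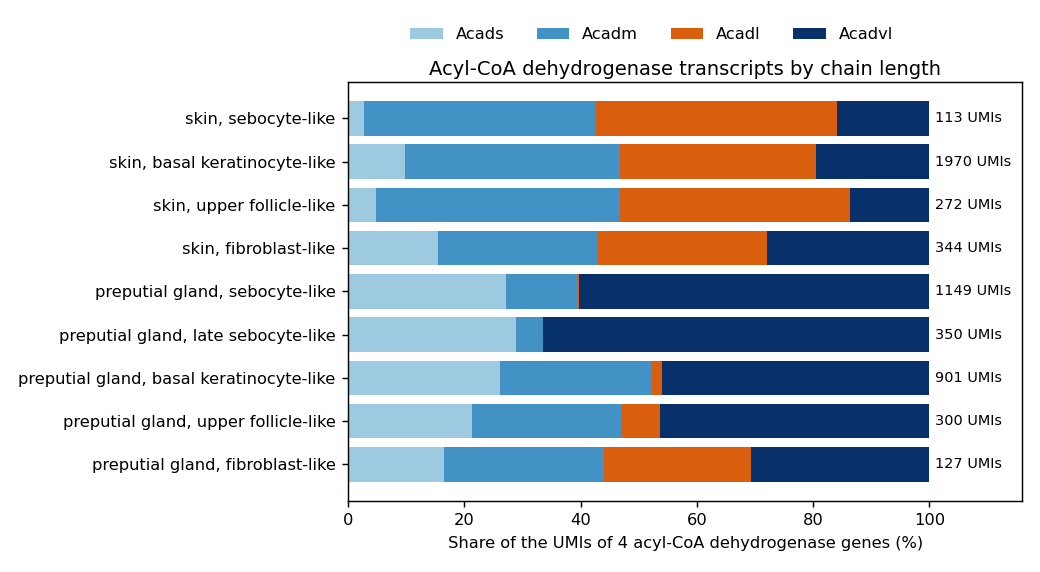
Share in percent of the UMIs of 4 acyl-CoA dehydrogenase genes by class and tissue, with the number of UMIs at the right of each bar. Acadl (orange) takes 41.6% in skin sebocyte-like cells, 0.174% in gland sebocyte-like cells, and 29.1% and 25.2% in the fibroblast-like cells of skin and gland.

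Within each library the sebocyte-like cells were set against basal keratinocyte-like cells, so that both sides share their library. These are basal cells of the whole tissue, and whether they include the precursors of the sebocytes was not tested. In skin, 6 of the 7 members that reached 50 CPM in either class were at least 2-fold higher in sSEB and 0 lower, against 23.5% and 17.6% of 3266 genes. *Acadl* was chosen by its sebocyte levels, and without it the count was 5 of 6. *Decr1* had the highest log2 ratio with 2.80 (2.12 to 3.42), followed by *Acadl* with 2.50 (2.04 to 2.93), *Etfdh* with 2.44 (1.55 to 3.22) and *Acadm* with 2.31 (1.84 to 2.75). *Hadha* had 1.99 and *Acadvl* 1.91, while *Hadhb* had 0.89 (-0.03 to 1.67). The median of all genes was shifted by 0.22 here, and 6 members stayed past 2-fold when centred on it. All 7 reached 50 CPM through sSEB, 4 of them through sSEB alone, which favours higher values.

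In PG the basal class was not a like reference, since its median cell held the sebocyte markers given above. Of 7 members that reached 50 CPM, 2 were at least 2-fold higher in pSEB, *Acadvl* (1.16, 0.98 to 1.33) and *Etfdh* (1.08, 0.87 to 1.28), and 0 were lower, against 11.1% and 11.4% of 2954 genes. *Decr1* (0.86), *Cpt2* (0.82), *Acads* (0.81), *Hadha* (0.50) and *Hadhb* (0.47) were higher by less than 2-fold, each with an interval above 0. *Cpt1a* was lower in pSEB, at 44.2 against 55.0 CPM (-0.32, -0.59 to -0.05), and *Acadm* had 33.7 and 40.8 CPM (-0.28, -0.59 to 0.03). *Acadl* had 2 and 18 UMIs (-2.76, -5.91 to -0.69), with both levels under that of near-empty barcodes. Against the 396 basal cells low in sebocyte markers 6 of the 7 members were at least 2-fold higher in pSEB, with log2 ratios of 1.47 (*Acads*) to 2.05 (*Acadvl*), *Acadm* was at 0.57 and *Cpt1a* at 0.61, so whether the contrast differed in size between the tissues depended on the basal cells used. With only the late-marked pSEB 4 members were at least 2-fold higher, and under clusters in place of the gate, or with the mean of CPM per cell, 1 was. The share of all genes was not taken for any of these alternatives. The 396 cells were also picked for low sebocyte markers, so these counts are a description.

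The pSEB were divided by basal keratinocyte markers and by markers of late lipid synthesis. Of these cells, 230 were early (at least 2 basal keratinocyte markers and no late marker), 404 between and 147 late (at least 2 of 6 late markers). *Acadm* had 40.3 CPM in early (46 UMIs), 40.2 CPM in between (82 UMIs) and 14.6 CPM in late cells (16 UMIs), a log2 ratio of late to early of -1.47 (-2.39 to -0.62). *Acadvl* had 128, 154 and 212 CPM in the same order (0.73, 0.42 to 1.04). Late pSEB were thus lower in *Acadm* and higher in *Acadvl*, and among the UMIs of the 4 dehydrogenases *Acadm* took 17.0% in early and 4.57% in late cells, while *Acadvl* took 53.9% and 66.6%. Near-empty barcodes of PG had 32.2 CPM of *Acadm* (25.2 to 40.5). The late level lay under that value, and the early interval (29.5 to 53.8) overlapped it. The part of free RNA in both *Acadm* levels was not tested, while the *Acadvl* levels lay above their near-empty 83.8 CPM.
*Cpt2* had 35.9 CPM in early and 57.3 CPM in late cells (0.67, 0.08 to 1.28). For *Cpt1a*, with 52.6 and 35.5 CPM, the interval included 0 (-0.57, -1.19 to 0.04). Near-empty barcodes of PG had 29.1 CPM of *Cpt2* (22.5 to 37.0), which overlapped the early interval (25.8 to 48.7), and 34.0 CPM of *Cpt1a*. The part of free RNA in these levels was not tested. *Hadha* had a log2 ratio of late to early of 0.29 (0.07 to 0.51), and *Hadhb*, *Etfdh*, *Decr1* and *Acads* had intervals that included 0. *Acadl* had 1, 1 and 0 UMIs. None of 8 members that reached 50 CPM was past 2-fold, against 9.25% higher and 5.68% lower of 2747 genes, since *Acadm* stayed under 50 CPM in both. Late cells had more UMIs, with a median of 7642 against 4649, and a mitochondrial share of 4.68% against 3.07% of UMIs, whose part in these ratios was not tested.

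**Figure D4:**
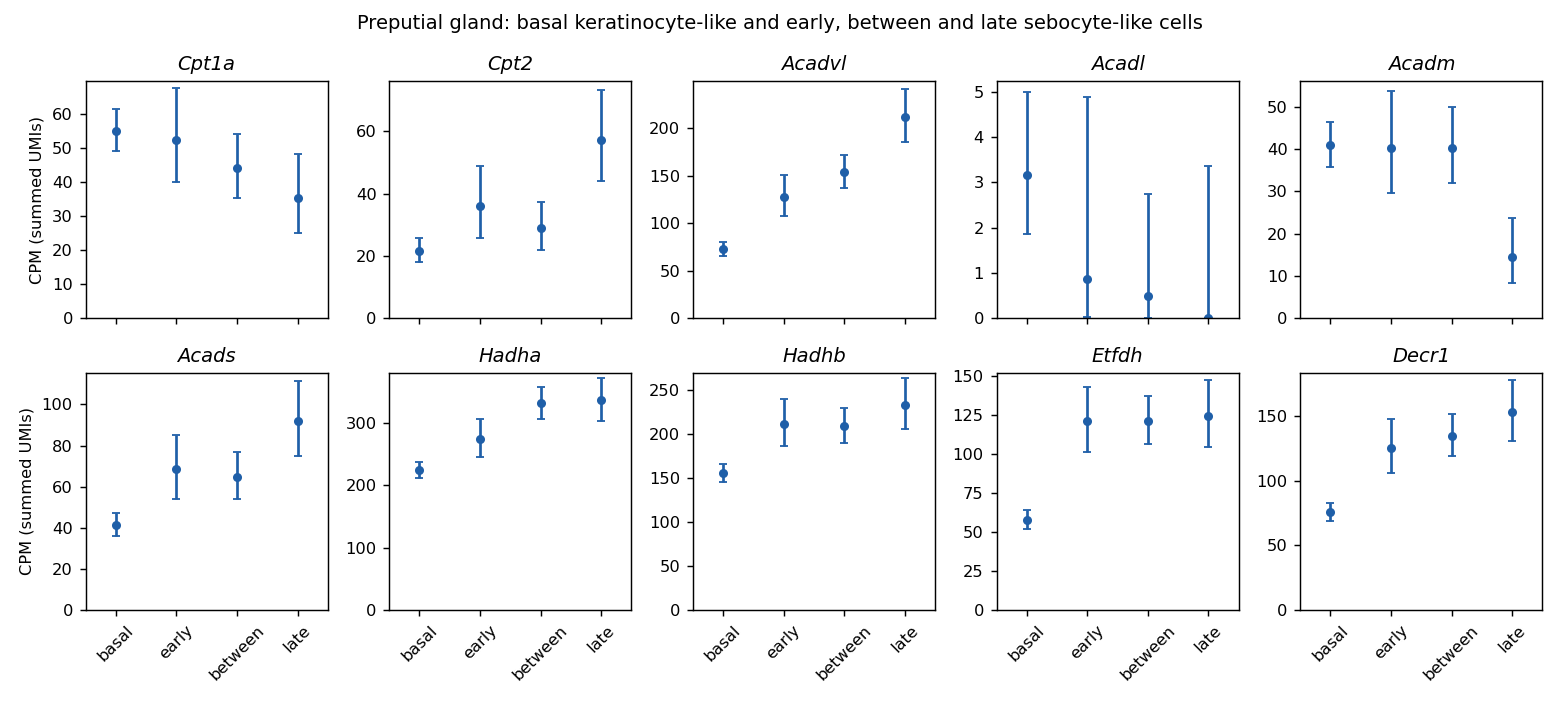
Level in CPM of the 10 genes in gland basal keratinocyte-like cells and in early, between and late sebocyte-like cells, with exact 95% Poisson intervals (counting error only) and a separate axis for each gene. Acadm stands at 40.3 CPM in early and 14.6 CPM in late cells, and Acadvl at 128 and 212 CPM.

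In skin the late cells had more of all 7 members with at least 10 UMIs. The 15 late sSEB had 428 CPM of *Acadm* (36 UMIs) and the other 17 cells 142 CPM (9 UMIs), a log2 ratio of 1.59 (0.51 to 2.83). *Acadl* had 404 and 206 CPM (0.97, 0.02 to 2.02) and *Hadha* 452 and 206 CPM (1.14, 0.19 to 2.17). The intervals of *Acadvl*, *Hadhb*, *Etfdh* and *Decr1* included 0. Of 7 members that reached 50 CPM, 3 were at least 2-fold higher and 0 lower, against 17.7% and 28.3% of 3403 genes. Late sSEB had a median of 5580 UMIs against 3620 in the others. Their mitochondrial share was 4.76% against 3.64% of UMIs, and the part of these differences was not tested. The summed level of the 10 members had a log2 ratio of 1.05, with an interval above 0, and that of the general mitochondrial genes described below 0.51 (0.32 to 0.71). As a share of the dehydrogenase UMIs *Acadm* took 41.9% (31.3% to 53.0%) in late and 33.3% (16.5% to 54.0%) in other sSEB, which was not separated. Only 4 sSEB were early, so late cells were set against all others, and this contrast is not the one used in PG. Among late cells of both tissues *Acadm* had 428 CPM in skin and 14.6 CPM in PG (-4.88, -5.83 to -3.99), and *Acadl* had 34 UMIs in skin and 0 in PG, at least 148-fold lower with a floor of 3 UMIs for the PG cells. The late markers *Far2* and *Awat1* had 1 and 0 UMIs in pSEB, so the late gate rested on fewer markers in PG.

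Other genes of the pathway did not follow *Acadl* as a group. Of 17 partner genes of mitochondrial beta-oxidation, 12 reached 50 CPM, of which 3 were at least 2-fold higher and 1 lower in pSEB, against the 15.7% and 21.0% of all 3177 genes, with a median log2 ratio of 0.48 against -0.18 for all genes. *Acsl1*, which activates long-chain fatty acids, had 247 CPM in pSEB and 13.6 CPM in sSEB from 2 UMIs (4.19, 2.33 to 7.24). *Etfa*, a subunit of the electron transfer flavoprotein, had 462 and 102 CPM (2.18, 1.46 to 3.02), while its partner *Etfb* had 559 and 516 CPM (0.12). *Eci1* and *Eci2*, isomerases for unsaturated chains, went opposite ways, with 1.24 (0.39 to 2.25) for *Eci1* and -2.81 (-3.35 to -2.23) for *Eci2*, from 238 CPM in sSEB and 33.9 CPM in pSEB. The thiolase gene *Acaa2* (-0.37, -0.80 to 0.10) and *Hsd17b10* (-0.10, -0.52 to 0.34) did not differ beyond counting error. *Acadsb*, the short/branched-chain acyl-CoA dehydrogenase gene, had too few UMIs to be named by the rule, and was added after its values were seen: it had 5 UMIs in sSEB and 2 in pSEB (-6.18, -9.58 to -3.57).

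Of 15 genes of peroxisomal beta-oxidation, a parallel pathway for very long and branched chains, 7 reached 50 CPM and 1 of them, the thiolase gene *Acaa1a*, was at least 2-fold higher (423 against 190 CPM, 1.15, 0.62 to 1.75), a count near the 15.7% of all genes. *Acaa1b* (1.49, -0.39 to 4.55) and *Acox2* (-1.40, -3.43 to 1.73) were not separated from 0. *Crot*, the peroxisomal carnitine octanoyltransferase gene, had 47.5 CPM from 7 UMIs in sSEB and 3.97 CPM in pSEB (-3.58, -4.92 to -2.07). *Ehhadh* had 0 UMIs in sSEB and 53 in pSEB. With the floor of 3 UMIs its log2 ratio was at least -0.72, a bound that gives no direction. Of 5 genes of ketone body enzymes 2 reached 50 CPM, and *Acat1* was higher (1.02, 0.37 to 1.76) and *Oxct1* lower (-0.42, -0.77 to -0.05). *Bdh1* (0.97, -0.91 to 4.04) had 2 UMIs in sSEB.

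Of 10 regulator genes 4 reached 50 CPM. *Pdk4*, a kinase that restrains pyruvate use, was higher in pSEB (129 against 61.1 CPM, 1.08, 0.15 to 2.22). *Acacb*, whose product makes the malonyl-CoA that inhibits the carnitine shuttle, was lower (43.7 against 163 CPM, -1.90, -2.52 to -1.22), and *Mlycd*, which removes malonyl-CoA, had 39.5 CPM in pSEB and 1 UMI in sSEB (2.54, 0.04 to 7.85). The receptor genes *Ppara* (-0.10, -1.35 to 1.55) and *Pparg* (-0.85, -1.65 to 0.09), the latter also a gate marker, and the coactivator gene *Ppargc1b* (0.98, -0.90 to 4.05) were not separated from 0. Of the 14 general mitochondrial genes all reached 50 CPM, 3 were at least 2-fold higher in pSEB (*Sdha* 1.73, *Ndufa9* 1.33, *Uqcrc1* 1.24) against 15.7% of all genes, and the 3 lowest (*Ndufs1* -0.52, *Sdhb* -0.31, *Timm44* -0.19) had intervals that included 0. The mitochondrial share of UMIs was 4.28% in sSEB and 3.64% in pSEB.

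**Figure D5:**
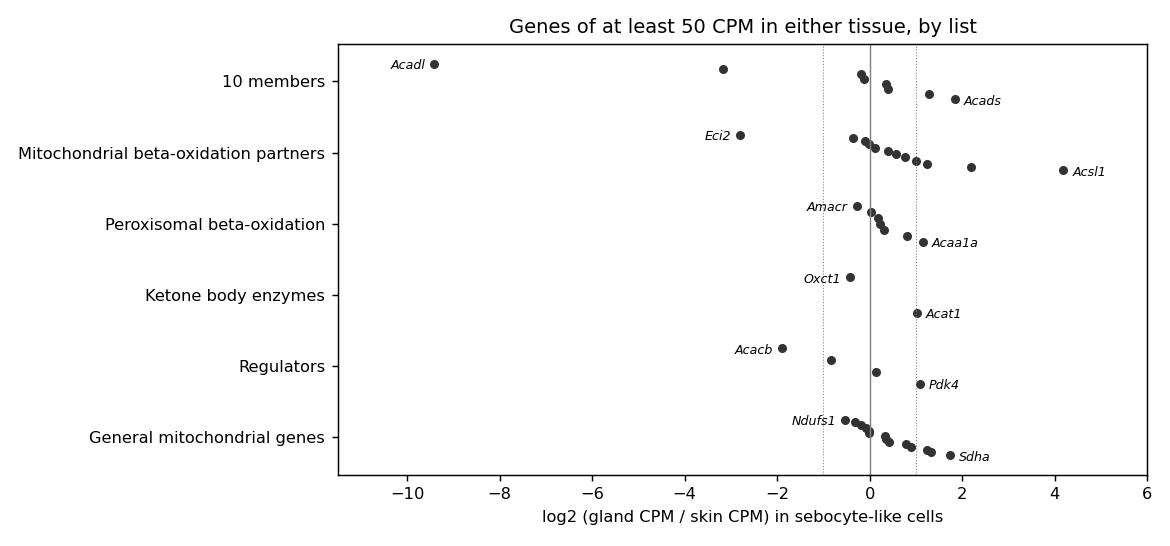
Log2 ratio of gland CPM to skin CPM in sebocyte-like cells for the genes with at least 50 CPM in either tissue, 1 point per gene, for the 10 members and 5 lists, with the lowest and highest gene of each named. Dotted lines mark 2-fold. Acadl at -9.42 and Acsl1 at 4.19 are the ends of the plot, and no general mitochondrial gene lies below -0.52.

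The genes whose levels were most like those of *Acadl* were sought over the 15 class levels among 6956 genes with at least 50 CPM in any class, as Pearson r of log2(CPM + 10). They were *Nmt1* (0.86), *Ccnd1* (0.84), *Malat1* (0.80), *Arl5b* (0.80) and *Sec61g* (0.80). sSEB, with under 50 cells, did not enter. *Nmt1* had 80.8 CPM in basal keratinocyte-like cells of skin and 22.6 CPM in those of PG, *Ccnd1* 183 and 1.93 CPM, and the fibroblast-like cells of PG had 25.1 CPM of each, against 83.9 and 115 CPM in skin. Of the members, *Acadm* had an r of 0.61 with *Acadl*, and the other 8 had between -0.84 (*Cpt2*) and -0.34 (*Acads*). The 15 levels share 2 libraries, and most of these genes differed between them in several classes.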

How the data were processed

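Per the labels and the file headers, the authors dissociated whole tissue, prepared 3′ libraries with a 10x Genomics kit and processed reads with Cell Ranger 4.0 on mm10. The deposited values are raw counts of UMIs per gene and barcode with no normalization or filter on cells. Barcodes with at least 500 genes, 1000 UMIs and at most 10% mitochondrial UMIs were kept, which removed 232 skin and 662 PG barcodes by the last limit. No doublet caller was run. A cell was gated to one of 15 classes by its markers (at least 3 detected, 4 for sebocytes, and a share of at least 20 per 10000 UMIs, or 0.25 of the near-empty share where larger), and the class furthest above its cut was taken, which left 9.99% and 10.5% of the cells without a class. The near-empty share raised the cut of 3 classes, to at most 27.2 per 10000. UMIs were summed per class and scaled to CPM. 3′ UMIs count molecules, so no length scaling was used. Levels have exact Poisson and ratios exact binomial 95% intervals, and a gene with 0 UMIs was set to a floor of 3 in a ratio. The 3 highest and 3 lowest ratios of each list with at least 10 UMIs were named, except for genes that are not reported here. The members, lists and markers were chosen with earlier results of these data known. Scripts were tested on simulated data. Python 3.11.15, numpy 2.4.6, scipy 1.17.1, leidenalg 0.10.2 and scikit-learn 1.9.0 were used. Coordinates are from RefSeq on GRCm38.p6.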

Additional observations from a re-analysis of the deposited data

Results flagged for a closer look

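*Acadl* moved in opposite directions between the tissues when sebocyte-like cells were set against basal keratinocyte-like cells of the same library. The log2 ratio was 2.50 in skin, from 47 and 666 UMIs, and -2.76 in PG, from 2 and 18 UMIs. Both ratios use the sebocyte levels by which *Acadl* was chosen, so the opposite signs largely restate that choice. The difference between the tissues was not tested, since each has 1 library. Both PG levels, 0.467 and 3.16 CPM, lay under the 10.6 CPM of near-empty barcodes, and with only late-marked cells, which had 0 UMIs, the floor gives a PG ratio of at most -0.21.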

How the results depend on the processing

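No paired analysis was possible because each tissue has 1 library. Depth limits the skin side, where 32 cells carried 3 to 51 UMIs per member. In sebocyte-like cells the gland to skin log2 ratio of *Acadl* ranged from -9.55 to -7.21 over 12 alternatives, and all 12 kept the direction of *Acadl*, *Acadm*, *Acads* and *Hadhb*. Its value of -7.21 came with late-marked cells, an alternative chosen after seeing the data, where 0 UMIs in PG make it a bound. Unsupervised clusters gave no skin sebocyte cluster, hence no value. Among fibroblast-like cells with at least 1000 genes and 2000 UMIs, the *Acadl* ratio was -1.75 and 2 members were at least 2-fold higher in PG, in place of 0. With the stricter gate 1 member was at least 2-fold higher in late than early PG sebocytes. The PG count of members at least 2-fold higher in sebocyte-like than basal cells, 2, became 1 under clusters, 1 with the mean of CPM per cell, 4 with late-marked cells and 6 against basal cells low in sebocyte markers, also chosen after seeing the data. With these basal cells 1 member, in place of 6, was at least 2-fold higher in PG than skin and 2, in place of 1, were lower. The share of all genes past 2-fold was not taken under these alternatives, so the changed counts are a description. The cause of these changes was not tested. Of 729 further values of single members, which include *Acadl* within each library, 692 stayed within the interval of the reported value and 37 moved. Among values reported past 2-fold, 0 reversed. Smaller ratios were not counted as reversed when their sign changed. *Cpt1a* and *Acadm* changed sign in PG when pSEB were set against basal cells low in sebocyte markers.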
